A study of Mus musculus with 2 samples.

Results

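The mammalian miR-99/100 and miR-125 families were followed at 7 miRNA loci in midbrain of mouse embryos at embryonic day 14.5: Mir99a, Mir100 and Mir99b of the miR-99/100 family, Mir125a, Mir125b-1 and Mir125b-2 of the miR-125 family, and Gm25927, a gene model that lies over let-7e on the opposite strand. The members were chosen by gene symbol, not by level, and are 7 of 1973 miRNA loci with counts. They sit in 3 clusters of the same layout on chromosomes 16, 9 and 17, and the let-7 loci Mirlet7c-1 and Mirlet7a-2 complete the first and the second cluster, giving 9 loci in all. The series held a single group, midbrain of strain B6NCrl at 14.5 days with no genotype or treatment in the labels. It had 2 replicate libraries and no contrast between conditions, so that levels are described and no test between conditions could be made.

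A miRNA gene is transcribed into a hairpin from which enzymes cut short mature strands, named 5p and 3p for the arm they come from. The mature strand guides a silencing complex to messenger RNAs, and bases 2 to 8, the seed, set most of the pairing. miR-125 is the vertebrate relative of worm lin-4 and let-7 is named after the worm gene; both act in developmental timing, and in the mammalian nervous system miR-125 and let-7 repress Lin28, a protein that blocks let-7 maturation. miR-99 and miR-100 are best known for repressing mTOR, and their sequence resembles that of the HOX-cluster miRNAs miR-10a and miR-10b. The clustering of these 3 families is ancient and the mammalian clusters are paralogs.

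The mature sequences are shown because they set which reads can be placed at a single locus. They are from RefSeq on GRCm38.p6, written 5′ to 3′ with the seed in capitals.
miR-99a-5p (Mir99a): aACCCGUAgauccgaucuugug
miR-100-5p (Mir100): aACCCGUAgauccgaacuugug
miR-99b-5p (Mir99b): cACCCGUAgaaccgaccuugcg
miR-125a-5p (Mir125a): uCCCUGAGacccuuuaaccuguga
miR-125b-5p (Mir125b-1 and Mir125b-2): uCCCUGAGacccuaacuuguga
let-7c-5p (Mirlet7c-1): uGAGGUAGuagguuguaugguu
let-7a-5p (Mirlet7a-2): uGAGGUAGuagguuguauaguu
let-7e-5p (over Gm25927): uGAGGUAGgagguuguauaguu
The sequences fell into 3 seed groups, 1 per family. With positions counted from 1 at the 5′ end, miR-100-5p differed from miR-99a-5p by the single substitution U16A, and miR-99b-5p differed from miR-99a-5p at 4 positions (A1C, U11A, U16C and U21C). miR-125a-5p and miR-125b-5p were identical over the first 13 bases and then differed, at lengths of 24 and 22 nt. Neither miR-10a-5p (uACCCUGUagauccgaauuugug) nor miR-10b-5p (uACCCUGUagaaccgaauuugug) had the seed of miR-100-5p, but miR-10a-5p shared a run of 11 bases with it.

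The miR-125b-5p sequence was present in full in the hairpins of both Mir125b-1 and Mir125b-2, and no other 5p or 3p strand of the miR-99/100 and miR-125 loci had such a copy. The stretch that the hairpins of this pair have in common was 24 nt long and enclosed the whole 5p strand, so that a read lying within it could not be assigned to either locus. The 3p strands of the pair differed from each other, also in the seed. Among the let-7 neighbours, let-7c-5p occurred also in Mirlet7c-2 and let-7a-5p in Mirlet7a-1, whereas the 5p and 3p strands of Mir99a, Mir100, Mir99b, let-7e and Mir125a occurred in no other annotated hairpin.

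**Figure D1:**
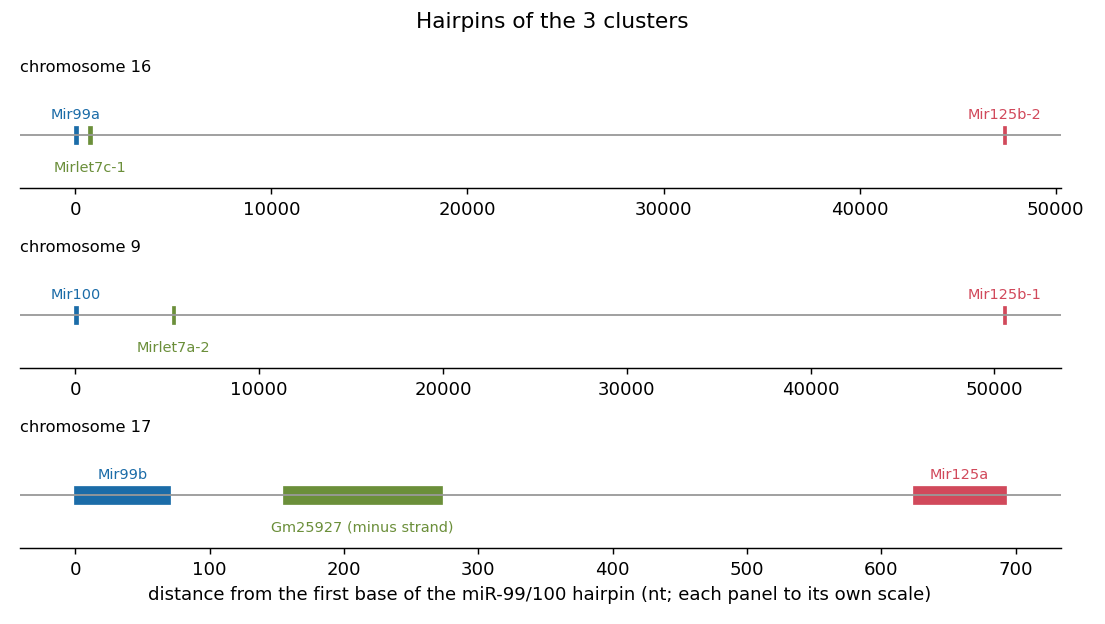
Positions of the 9 hairpins in the 3 clusters, in nucleotides from the first base of the miR-99/100 hairpin, with a separate scale for each panel and outlines that widen the hairpins of the upper panels. The order miR-99/100, let-7, miR-125 is the same in each, and Mir125a starts 624 nt from Mir99b, whereas Mir125b-2 and Mir125b-1 lie 47.3 and 50.5 kb from Mir99a and Mir100.

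In assembly mm10, Mir99a (ENSMUSG00000065530.1) lay on the plus strand at 77598936 to 77599000 of chromosome 16, in an intron of the noncoding host gene Mir99ahg. Mir125b-2 (ENSMUSG00000065472.1, 77646273 to 77646343) lay 47.3 kb further on in an intron of the same host and overlapped an exon of the unclassified gene C130023A14Rik. On chromosome 9, Mir100 (ENSMUSG00000093011.1, 41531425 to 41531504) and Mir125b-1 (ENSMUSG00000093354.1, 41581926 to 41582002) lay 50.5 kb apart in introns of the noncoding gene 3110039I08Rik; Mir100 also overlapped an exon of Gm48742 on the opposite strand, and Mir125b-1 an exon of the sense-intronic gene Gm28119. On chromosome 17, Mir99b (ENSMUSG00000065396.1, 17830188 to 17830257) lay in an intron of Spaca6, a gene known for its role in sperm-egg fusion, and Mir125a (ENSMUSG00000065479.1, 17830812 to 17830879), 624 nt further on, overlapped an annotated exon of that gene. Gm25927 (ENSMUSG00000092799.1, 17830343 to 17830459) is annotated on the minus strand, and Mirlet7e (17830352 to 17830444, plus strand) lies inside it. The distances are drawn in the map of the hairpins.

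The labels limit what the replicates stand for. Each is described as the midbrain of a single pup, with different collection days, yet the sex is given as pooled, and pup, pregnancy and donor identifier are the same for both, so that the SDs here measure the spread between these 2 libraries, which may be technical. Replicate 1 held 7302633 sense reads at miRNA loci and replicate 2 held 3966727, so that 1 read equalled 0.137 and 0.252 CPM (reads per 1000000 sense reads). The floor set by a count of 0 was 3 reads, or 0.411 and 0.756 CPM, for counting error only. Reads mapping to several places, 36.2% and 36.9% of all reads, were tallied apart from the loci. A list of 12 brain miRNA loci was chosen with earlier results of these data known and is no independent check of the tissue label. Of these, 10 had at least 10 reads in each library, against 20.1% of the 1973 loci. Mir149 and Mir137 were highest at 17513 ± 704 and 12716 ± 1726 CPM (SD, n = 2), and Mir9-2 and Mir124a-3 fell short. The 5p and 3p strands of Mir9-2, and of the detected Mir9-3, occur in another hairpin, so that reads within them were not counted at either locus. As a bulk tissue, these libraries do not tell fewer cells of a type from less RNA per cell.

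All 7 members had at least 10 reads in each library, against 20.1% of the 1973 loci. Together the 6 loci of the miR-99/100 and miR-125 families took 29.3% ± 0.572 of the sense reads (SD, n = 2). The miR-99/100 loci held 27.8% ± 0.425 and the miR-125 loci 1.56% ± 0.147, and the former exceeded the latter 16.8-fold in replicate 1 and 18.8-fold in replicate 2 (17.8 ± 1.41). These folds are upper limits, because reads within the sequence shared by Mir125b-1 and Mir125b-2 were not counted at either. The count does not separate the arms of a hairpin, so that a level here is that of all reads at a locus.

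In the miR-99/100 family Mir99a was the highest locus, with 215113 CPM in replicate 1 and 213495 CPM in the other library. Its 214304 ± 1144 CPM (SD, n = 2) placed it first of all loci in each library. The coefficient of variation of 0.534% is on plain totals, of which Mir99a itself made up 21.4%. On library sizes scaled with TMM in edgeR, Mir99a was 1.08-fold lower in replicate 2. Mir100, its chromosome 9 paralog, had 38345 and 36370 CPM. Mir100 held place 4 by the mean, place 3 in replicate 1 and place 5 in replicate 2. Mir99b, on chromosome 17, had 27186 and 24771 CPM and held place 9 by the mean.

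The miR-99/100 loci kept the same order in both libraries and their values did not overlap. Mir99a exceeded Mir100 5.61-fold in replicate 1 and 5.87-fold in replicate 2 (5.74 ± 0.184, SD, n = 2). Mir100 exceeded Mir99b 1.41-fold and 1.47-fold (1.44 ± 0.0408), a gap of 11379 CPM against a larger SD of 1707 CPM. These sequences differ by as little as 1 base, and reads of Mir99a with an error at that base were not told apart from reads of Mir100; their number was not tested.

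The miR-125 family ran in another order. Mir125a, on chromosome 17 with the lowest miR-99/100 locus, was the highest of the family, with 10794 CPM in replicate 1 and 8309 CPM in replicate 2. Mir125b-1 had 3269 and 3372 CPM. Mir125b-2, in the cluster of Mir99a, had 2610 and 2908 CPM. The libraries did not overlap between any of these 3 loci: Mir125a exceeded Mir125b-1 3.30-fold in replicate 1 and 2.46-fold in replicate 2, and Mir125b-1 exceeded Mir125b-2 1.25-fold and 1.16-fold. By mean level they held places 23, 58 and 63.

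The levels of Mir125b-1 and Mir125b-2 leave out any read that lies within the 24 nt they share. Reads mapping to several places outnumbered the reads at Mir125b-1 and Mir125b-2 together 150-fold in replicate 1 and 142-fold in replicate 2. How many of them were miR-125b-5p was not tested, since the deposited tables do not divide this class by sequence. The order of Mir125a and the Mir125b loci is therefore an order of the reads placed at each locus. The summed read count of the miR-125 family is a lower limit. Its share of the sense reads is not, because multiply mapping reads were left out of the library size too.

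**Figure D2:**
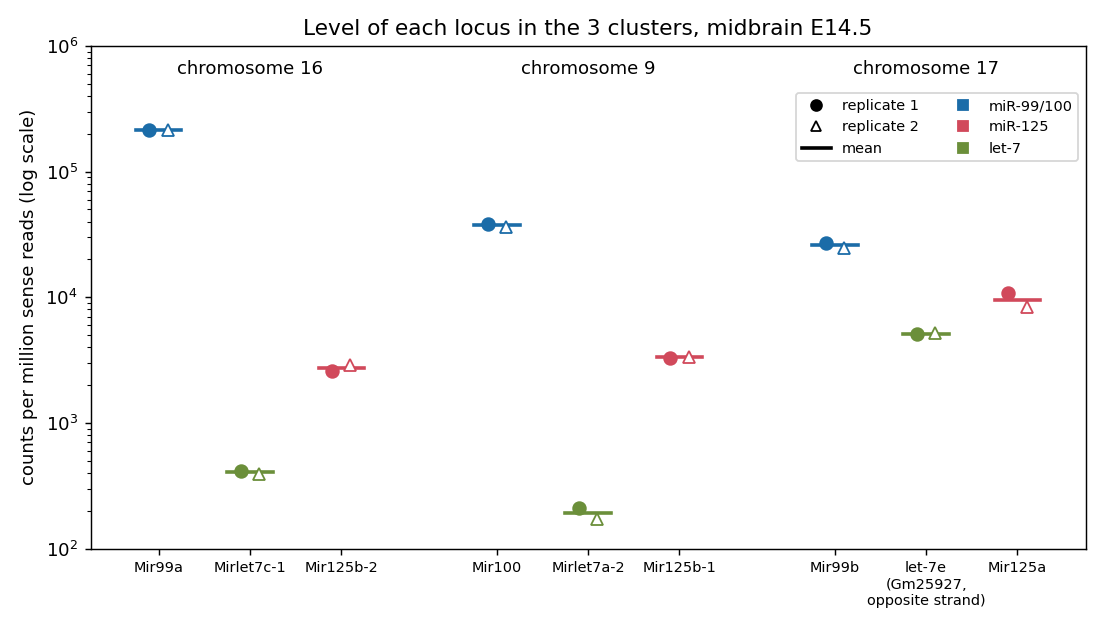
Level of each of the 9 loci in CPM on a log axis, with circles for replicate 1, open triangles for replicate 2 and lines for their mean. Mir99a stands at 214304 CPM on average, Mirlet7c-1 and Mirlet7a-2 at 405 and 192 CPM, and the loci of chromosome 17 lie closest together.

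The middle gene of each cluster belongs to the let-7 family. At Gm25927 no read was found on its annotated strand in either library, and 37117 reads of replicate 1 and 20531 of replicate 2 lay on the opposite strand, that of let-7e. As let-7e this corresponds to 5083 and 5176 CPM, with overlapping exact 95% Clopper-Pearson intervals of 5031 to 5135 and 5105 to 5247 CPM. At the other 8 loci of the clusters the opposite strand held 1 read in all, at Mir99a in replicate 1. Mirlet7c-1 had 414 CPM in replicate 1 and 396 CPM in replicate 2, and Mirlet7a-2 had 211 and 173 CPM. The let-7 locus of chromosome 17 thus exceeded that of chromosome 16 by 12.3-fold and 13.1-fold and that of chromosome 9 by 24.1-fold and 29.8-fold in replicates 1 and 2. The 5p strands of Mirlet7c-1 and Mirlet7a-2 have a copy in another hairpin and that of let-7e has none. Reads within such a copy were not counted at Mirlet7c-1 or Mirlet7a-2, so that the folds of let-7e over them are upper limits.

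The ratio of the miR-99/100 locus to the miR-125 locus was highest on chromosome 16 and lowest on chromosome 17. On chromosome 16 Mir99a exceeded Mir125b-2 82.4-fold in replicate 1 and 73.4-fold in replicate 2 (77.9 ± 6.35, SD, n = 2). On chromosome 9 Mir100 exceeded Mir125b-1 11.7-fold and 10.8-fold (11.3 ± 0.666). On chromosome 17 Mir99b exceeded Mir125a 2.52-fold and 2.98-fold (2.75 ± 0.327). These ratios are taken within a library and need no scaling, and the ranges of the 3 clusters did not overlap. The chromosome 17 ratio compares loci whose strands have no copy, whereas the other 2 ratios have a Mir125b locus below the line and are upper limits. By reads placed at each locus, the ratio of the miR-125 locus to the let-7 locus had another order, highest on chromosome 9. Mir125b-1 exceeded Mirlet7a-2 15.5-fold and 19.4-fold, Mir125b-2 exceeded Mirlet7c-1 6.30-fold and 7.35-fold, and Mir125a exceeded let-7e 2.12-fold and 1.61-fold. On chromosomes 9 and 16 reads within strand copies were left out of both loci of this ratio, on chromosome 17 of neither. The ratios of chromosomes 9 and 16 are therefore neither upper nor lower limits. By reads placed at each locus, the order of the families within each cluster was miR-99/100 first on all 3 chromosomes, then miR-125 and then let-7. Whether the reads left out change these orders was not tested.

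Of the reads placed at single loci, most miR-99/100 reads were at chromosome 16 and most miR-125 reads at chromosome 17. The miR-125 shares leave out reads within the sequence shared by Mir125b-1 and Mir125b-2, so that the share of chromosome 17 is an upper limit. Chromosome 16 gave 76.6% of the miR-99/100 reads in replicate 1 and 77.7% in replicate 2, but 15.7% and 19.9% of the miR-125 reads. Chromosome 17 gave 9.69% and 9.02% of the miR-99/100 reads, but 64.7% and 57.0% of the miR-125 reads. Chromosome 9 gave 13.5% ± 0.297 of the miR-99/100 reads and 21.4% ± 2.48 of the miR-125 reads (SD, n = 2).

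**Figure D3:**
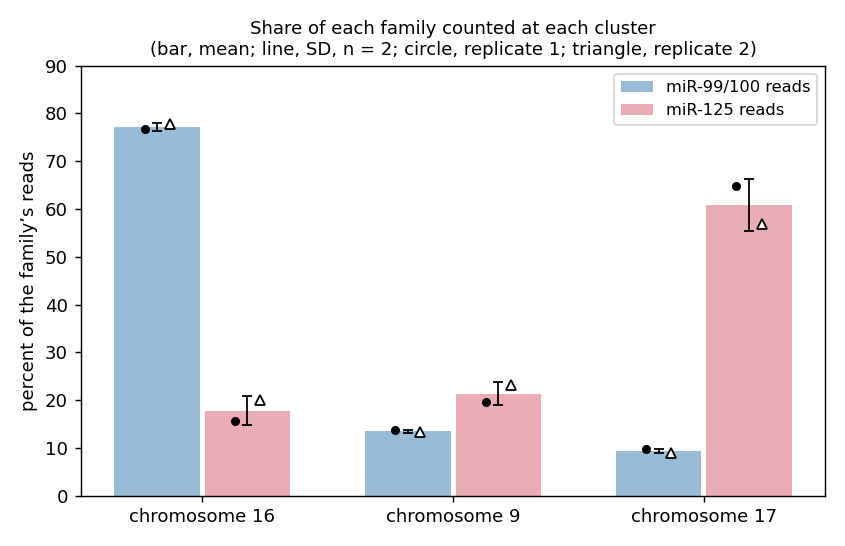
Percent of the miR-99/100 reads (blue) and of the miR-125 reads (red) counted at the clusters of chromosomes 16, 9 and 17, with bars for the mean, lines for the SD (n = 2), circles for replicate 1 and triangles for replicate 2. Chromosome 16 holds 77.2% of the miR-99/100 reads on average and chromosome 17 holds 60.8% of the miR-125 reads.

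Summed over its miR-99/100 and its miR-125 locus, the chromosome 16 cluster reached 217723 and 216403 CPM in replicates 1 and 2. The chromosome 9 cluster had 41614 and 39742 CPM and the chromosome 17 cluster 37979 and 33080 CPM. Chromosome 16 exceeded chromosome 9 by 5.23-fold and 5.45-fold. Chromosome 9 exceeded chromosome 17 by 1.10-fold and 1.20-fold, a gap of 5148 CPM against a larger SD of 3464 CPM. With the let-7 locus of each cluster added, chromosomes 9 and 17 had 40870 ± 1350 and 40659 ± 3399 CPM. They changed places between the libraries, with ratios of 0.971 and 1.04, so that their order was not resolved. The read counts of chromosomes 16 and 9 are lower limits, since reads within the strand copies of their Mir125b and let-7 loci were left out. Their CPM are not such limits, because multiply mapping reads were left out of the library size too. The 5p strands of the chromosome 17 loci have no copy in another hairpin.

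By mean CPM of reads placed at each locus, the 9 loci ran Mir99a, Mir100, Mir99b, Mir125a, let-7e, Mir125b-1, Mir125b-2, Mirlet7c-1 and Mirlet7a-2. All 8 gaps between neighbours in this order were larger than the larger SD of the pair and had the same sign in both libraries. The narrowest, relative to that SD, were Mir125a to let-7e (2.52 times) and Mir125b-1 to Mir125b-2 (2.67 times), and an SD from 2 libraries is itself imprecise.

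Other loci stood at the same level as single members in reads placed at each locus, by the difference in mean CPM over the 2 libraries. The counts of Mir125b-1 and Mir125b-2 in this comparison leave out reads within their shared sequence. Mir107 (2757 ± 305 CPM) was nearest to Mir125b-2, Mir151 (5159 ± 97.9 CPM) to let-7e, Mir23b (9635 ± 991 CPM) to Mir125a and Mir130a (36977 ± 75.1 CPM) to Mir100. None of these pairs differed by more than its larger SD, but each locus was picked as the nearest, so that this is no test. Mir431 (3077 ± 421 CPM) and Mir1983 (3599 ± 468 CPM) enclosed Mir125b-1, and Mir487b (24176 ± 2584 CPM) and Mir17 (29181 ± 1989 CPM) enclosed Mir99b. Of these only Mir17 differed from its member by more than the larger SD. Mir99a had no such neighbour, the next locus, Mirlet7g, being 158191 CPM lower. The HOX-cluster miRNAs with a related sequence were far below the miR-99/100 loci, Mir10a with 539 and 783 CPM and Mir10b with 413 and 538 CPM.

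Between the libraries the members differed little. On library sizes scaled with TMM in edgeR, 0 of the 7 members differed by more than 1.5-fold, against 16.6% of the 397 loci with at least 10 sense reads in each library, and the median absolute log2 ratio was 0.11 for the members and 0.23 for those 397 loci. The members are abundant loci, and among the 89 detected loci with a mean of at least 1000 CPM, 3 differed by more than 1.5-fold and the median was 0.17. The log2 ratio of replicate 2 to replicate 1 was -0.05 for Mir125b-1, 0.06 for Mir125b-2, -0.07 for let-7e at Gm25927, -0.11 for Mir99a, -0.17 for Mir100 and -0.23 for Mir99b. The exact 95% intervals of the CPM on plain totals did not overlap between the libraries in 6 of the 7 members, all but Gm25927. The same held for 49.4% of the 397 detected loci and for 81 of the 89 with a mean of at least 1000 CPM, so that the members did not stand apart from loci of their level.

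Mir125a differed most of the members, at a log2 ratio of -0.47, or 1.39-fold lower in replicate 2. Its exact 95% Clopper-Pearson intervals were 10719 to 10869 CPM in replicate 1 and 8220 to 8398 CPM in replicate 2, and 306 of the 397 detected loci, and 92.1% of those with a mean of at least 1000 CPM, differed less on TMM sizes. Mir99b, 624 nt away, was 1.17-fold lower in replicate 2, and let-7e between them 1.05-fold lower, both on TMM sizes; on plain totals let-7e was slightly higher in replicate 2 (log2 ratio 0.03). Several loci known from vessels and blood were also lower in replicate 2. Endothelial Mir126a had 27037 CPM in replicate 1 and 18011 CPM in replicate 2, and the 5 smooth muscle and mesenchyme loci, 3 of them detected and none at 0, summed to 5761 and 3834 CPM, and the 3 red cell loci, all detected, summed to 486 and 153 CPM. In that list Mir451a had 447 and 123 CPM, whereas Mir486 had 9.86 and 10.8 CPM. The white blood cell list, with 2 of 3 counted loci detected and Mir142b at 0, summed to 315 and 113 CPM. In it Mir223 had 212 and 24.5 CPM, and Mir155 104 and 88.5 CPM. The brain list summed to 37587 and 42625 CPM. The list of HOX-domain loci, 4 of 6 detected, summed to 1001 and 1404 CPM, and the muscle list, 2 of 6 detected, to 31.4 and 41.1 CPM. These CPM are on plain totals, unlike the log2 ratio of Mir125a. The part of the cell types behind these lists in the difference at Mir125a was not tested.

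**Figure D4:**
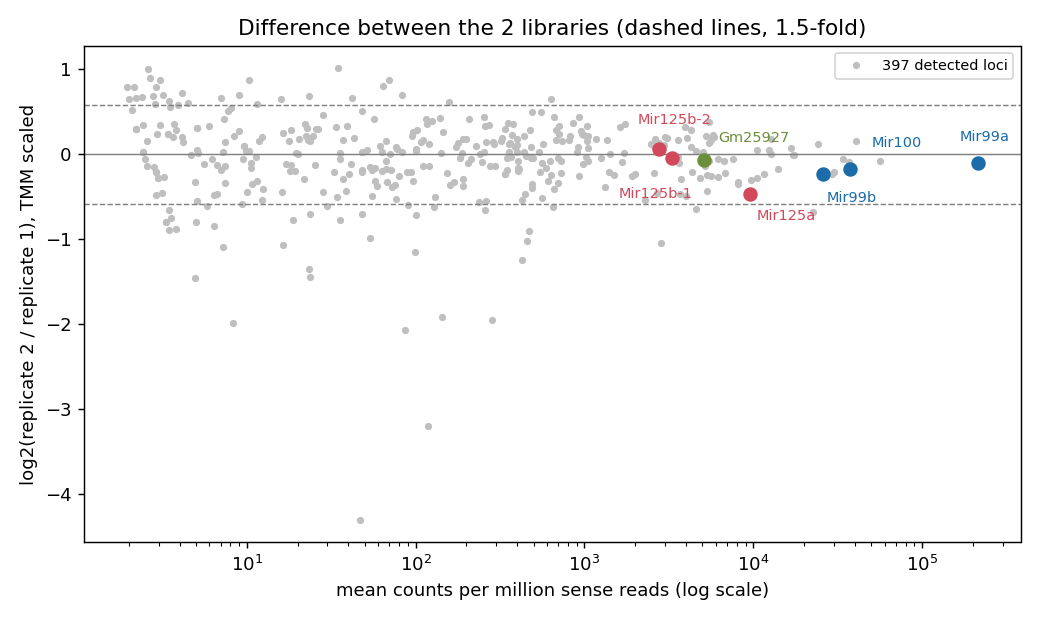
Log2 ratio of replicate 2 to replicate 1 after TMM scaling against the mean level on a log axis, for the 397 detected loci (grey) and the 7 members (coloured by family). All 7 members lie between the dashed lines at 1.5-fold, with Mir125a lowest at -0.47.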

How the data were processed

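Per the labels, total RNA was sequenced as miRNA libraries of inserts under 30 nt. For each library the authors deposited raw read counts at every miRNA gene, unstranded, on the annotated strand (sense) and on the opposite one. The README texts deposited beside them name mm10 and annotation M4; an aligner or counter is not given in the sources used. Symbols and positions are those of GENCODE M21 (also mm10), found by gene identifier for 1894 of 1973 loci. CPM used the sense total; for Gm25927 the opposite-strand count was used, because let-7e lies there. Unmapped (19.0% and 18.5% of reads), multiply mapping and no-gene reads (3.10% and 2.17%) were left out of library sizes. Strand copies were exact matches of a RefSeq mature sequence, on either strand, in any GENCODE hairpin that does not overlap the locus; the genome outside hairpins was not searched. Values are means ± SD over 2 replicates, with exact Clopper-Pearson 95% intervals for counting error only, since PCR copies are not independent molecules. edgeR 4.0.16 gave TMM sizes and DESeq2 1.42.0 the alternative size factors (R 4.3.3); the ratio step was tested on simulated data. Named loci were the members, their let-7 neighbours, Mir10a, Mir10b, marker lists and the locus above and below each member in level. The members, lists and rules were chosen with earlier results of these data known. Alternatives were other library sizes, both strands, other count minimums, averaging, a pseudocount of 1 CPM and each replicate left out. Hairpin sequences are not reported here.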

Additional observations from a re-analysis of the deposited data

How the results depend on the processing

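The cluster totals moved by less than 1 SD with TMM and DESeq2 sizes. Both methods scale the 2 libraries in opposite directions, so that their mean could hardly move and this is no test of the totals. The ratios of miR-99/100 to miR-125, within the clusters and over all 3, also moved by less than 1 SD with both strands, with summed counts and without either replicate. For the ratios this was fixed in advance and is no test. With 2 libraries, leaving 1 out or summing counts cannot move a mean by 1 SD. The opposite strand held 1 read in all at these loci. With all reads of the tables as the library size, the totals of chromosomes 16, 9 and 17 became 89400.2, 16751 and 14627 CPM, and without Mir99a in the sense total 276269, 51774 and 45224 CPM, by construction of the denominator. With both strands counted the chromosome 16 total became 212626 CPM, and with let-7e added the chromosome 17 total became 40659 CPM. All 7 members were detected at minimums of 3 and 100 reads and all 7 stayed within 1.5-fold with plain totals and DESeq2 sizes. Under plain totals the median replicate log2 ratio over detected loci was 0.09, and the ratio of Mir125a moved from -0.47 to -0.38. That of Mir99a moved from -0.11 to -0.01. With these totals the signs of Mir125b-1 (0.04) and let-7e (0.03) changed, both within 1.5-fold. No paired analysis was possible because the series has 1 group. The member with the fewest reads, Mir125b-2, had 19063 and 11534, and the levels of Mir125b-1 and Mir125b-2 leave out reads within their shared sequence at any depth.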

Other observations

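Across the 9 loci of the clusters, the 4 whose 5p strand occurs in another hairpin (Mirlet7c-1, Mir125b-2, Mirlet7a-2 and Mir125b-1) had mean levels of 192 to 3321 CPM, and the 5 whose 5p strand does not (Mir99a, Mir100, Mir99b, let-7e at Gm25927 and Mir125a) had 5129 to 214304 CPM, with no overlap. Reads within a 5p copy were not counted at the loci that have one, which can only lower their counts. The part of this in the division was not tested. The let-7 list divided the same way. The 5 let-7 loci with a 5p copy (Mirlet7a-1, Mirlet7a-2, Mirlet7c-1, Mirlet7c-2 and Mirlet7f-2) lay between 192 and 1905 CPM, and the 6 without (Mirlet7b, Mirlet7d, Mirlet7g, Mirlet7i, Mir98 and let-7e) between 3926 and 56113 CPM; 3 loci are in both comparisons.

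Over all loci with a RefSeq 5p strand, the levels of those detected overlapped between the 2 kinds. The 35 detected loci whose 5p strand occurs in another hairpin lay between 2.79 and 6180 CPM with a median of 348 CPM, and the 296 without such a copy between 1.95 and 214304 CPM with a median of 129 CPM. Of the loci with a 5p copy 35 of 259 were detected, against 296 of 674 without. Many of the 259 are gene models with a Gm number and few of the 674 are, and detection was not compared within named Mir genes. Detection requires 10 reads in each library, so these medians leave out loci that fell below it. The search over all loci was chosen after the values of the clusters were seen.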
